A study of Homo sapiens with 6 samples.

Results

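The transcriptome of HFL-1 cells transfected with siTAZ #1 was compared with that of cells transfected with siNTC, a non-targeting control siRNA, over every gene with a symbol outside a stretch of the genome that was nearly uncounted in 1 library. HFL-1 is a human fetal lung fibroblast line, and siTAZ #1 is a small interfering RNA, a short double-stranded RNA that directs the degradation of the mRNA it pairs with, here that of TAZ. RNA was taken 48 h after transfection, and each group was sequenced in 2 libraries on the Ion Proton platform. A second siRNA to the same gene, siTAZ #2, was sequenced alongside in 2 libraries. All 6 libraries came from this single line, with no other treatment named, and the series describes the libraries of a group as biological replicates. The members were 22133 of the 23355 genes with a symbol. Genes from RANGAP1 (chromosome 22, 41640783 to 41682191 on GRCh37) to the end of that chromosome and on X and Y were left out, because they held 0.247% of the counts of siTAZ #1 replicate 2 against 3.59% to 3.76% of the other libraries.

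TAZ, the product of WWTR1, is a transcriptional coactivator. Kinases of the Hippo pathway phosphorylate it and hold it in the cytoplasm, and when it enters the nucleus it joins TEAD proteins on DNA and activates genes of growth, adhesion and matrix. Its paralogue YAP1 is controlled in the same way. In lung fibroblasts TAZ is known for its activation on stiff matrix and for its part in matrix production.

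The total count over genes with a symbol was 15990711 and 16210968 for siNTC and 15648055 and 32078188 for siTAZ #1, so siTAZ #1 replicate 2 was the deepest library. Each level below is in TMM-normalized CPM (the count of a gene relative to the total of its library, with the libraries scaled to each other). The spread between replicates exceeded counting noise, and the chi-square averaged over genes was 5.39 for siNTC and 23.2 for siTAZ #1. Fibroblast markers summed to 49400 and 49200 CPM with siNTC and to 39600 and 36300 CPM with siTAZ #1, and all 14 of them were tested. Of these, 7 fell and 4 rose. The markers highest in siNTC were among those that fell, COL1A2 from 12700 and 13100 CPM to 7090 and 5560 CPM and COL1A1 from 9240 and 10100 CPM to 5740 and 5830 CPM. The summed level ranged over these 4 libraries from 55.6 to 60.5 CPM for 16 epithelial markers, from 47.6 to 55.7 CPM for 11 endothelial markers and from 71.3 to 79.3 CPM for 12 immune markers. The defining markers EPCAM, CDH1, PECAM1, CDH5 and PTPRC were at 1.64 CPM or less in each of the 4 libraries, and the sums came mostly from KRT18 at 30.7 to 37.5 CPM, TEK at 42.5 to 46.4 CPM and CD68 at 69.4 to 78.1 CPM, of which none passed the test. In such bulk samples, fewer cells of a type and less RNA per cell cannot be told apart.

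WWTR1, the targeted gene (chromosome 3, 149235022 to 149454501 on GRCh37), was at 137 and 136 CPM with siNTC and at 27.3 and 28.7 CPM with siTAZ #1. Both siTAZ #1 libraries lay far below both controls, at 20.5% of the control mean. The log2 fold change was -2.28 ± 0.12 (SE; FDR = 3e-09, edgeR's quasi-likelihood test), where FDR is the Benjamini-Hochberg adjusted p over all genes tested. YAP1, the paralogue, was at 219 and 203 CPM with siNTC and at 293 and 353 CPM with siTAZ #1. It rose in both libraries, by 0.62 ± 0.12 on the log2 scale (FDR = 0.0012). With siTAZ #2, WWTR1 was at 47.8 and 44.7 CPM, which was higher than with siTAZ #1 in the direct comparison of the siRNAs (FDR = 0.00022).

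Of the 13438 genes that passed the filter on low counts, 2026 (15.1%) were lower and 2132 (15.9%) were higher with siTAZ #1 at an FDR under 0.05, together 30.9%. The shares of 15.1% and 15.9% are the reference for every list and family below. The median change was -0.72 on the log2 scale among those lower and 0.71 among those higher. Changes of at least 1 on the log2 scale numbered 585 downward and 633 upward. At 3 or more the increases prevailed in number, with 54 genes higher and 11 lower. The 11 include MGC16121, whose siTAZ #1 replicates were far apart. The libraries of the groups did not overlap for 2025 of the 2026 lower and 2125 of the 2132 higher genes. The test draws on the same values and favours separated libraries, so this adds no support to the calls. Of all genes tested, 31.8% lay wholly below and 33.4% wholly above. With either siNTC library left out, the counts fell to between 1079 and 1167 genes per direction. With 2 libraries per group no permutation test of a single gene can reach a p under 0.05, and the spread behind each test was estimated over 6 libraries and all genes.

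**Figure D1:**
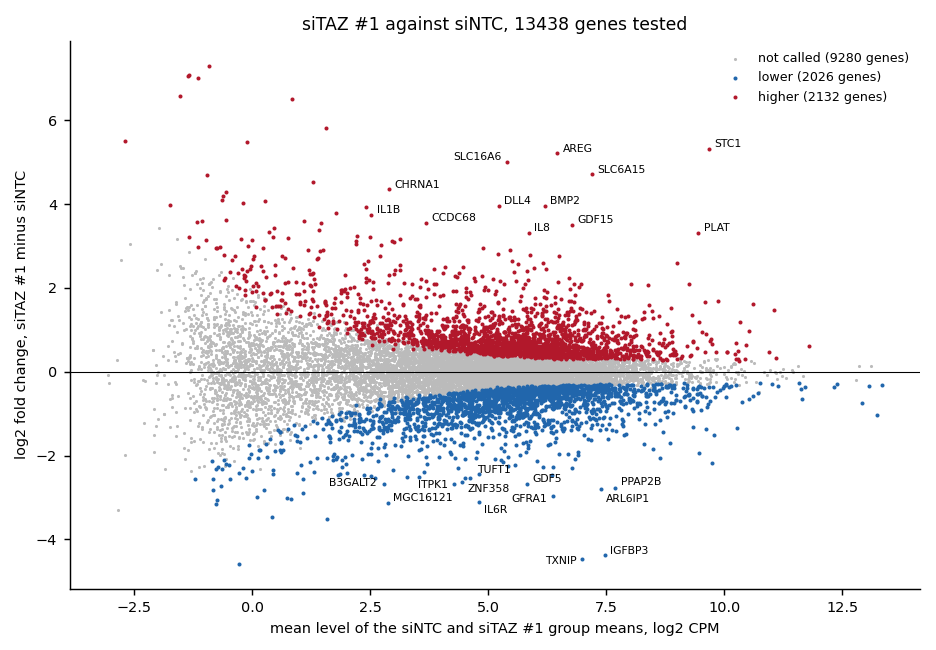
Log2 fold change of siTAZ #1 minus siNTC (vertical axis) against the mean level in log2 CPM (horizontal axis), with 1 point per gene tested. Blue points are the 2026 lower genes, red points the 2132 higher genes and grey points the rest, and the 24 named genes with the largest changes carry their symbols; genes without counts in a group are plotted at their fitted value.

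Among genes with a mean of at least 5 CPM, TXNIP fell most. TXNIP (chromosome 1, 145438490 to 145442635 on GRCh37) encodes an arrestin-like protein that binds thioredoxin and limits glucose uptake. It was at 240 and 242 CPM with siNTC and at 11.3 and 10.7 CPM with siTAZ #1, a decrease to 4.56% of the control (log2 fold change -4.46 ± 0.15, FDR = 1.1e-11). IGFBP3, a secreted carrier of insulin-like growth factors, went from 322 and 357 CPM to 15.1 and 17.2 CPM (-4.38 ± 0.15). IL6R, GFRA1 and GDF5 were also near the bottom of the ranking. IL6R, the receptor chain that binds interleukin 6, was at 50.3 and 49.5 CPM with siNTC and at 5.95 and 5.64 CPM with siTAZ #1 (-3.11 ± 0.19). GFRA1, a receptor for the neurotrophic factor GDNF, fell from 148 and 145 CPM to 17.6 and 19.6 CPM (-2.97 ± 0.14). GDF5, a ligand of the BMP family that acts in joint formation, fell from 92.2 and 103 CPM to 14.4 and 15.9 CPM (-2.68 ± 0.14). In each of these genes the libraries of the groups were separated by several-fold, and the replicates lay close together.

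The remaining genes among the 12 largest decreases had varied roles. ARL6IP1, a shaper of the endoplasmic reticulum membrane, was at 295 and 288 CPM with siNTC and at 42.1 and 41.5 CPM with siTAZ #1 (-2.80 ± 0.13). PPAP2B, a phosphatase that breaks down lysophosphatidic acid and related lipids, went from 365 and 357 CPM to 52.2 and 53.2 CPM (-2.78 ± 0.11). ITPK1, a kinase of inositol phosphates, was at 33.5 and 33.2 CPM and then at 5.21 CPM in both libraries (-2.68 ± 0.18). B3GALT2, a galactosyltransferase, ZNF358, a zinc finger protein, and TUFT1, first described in tooth enamel, had log2 fold changes of -2.68, -2.62 and -2.55. MGC16121 had no position in the annotation used and was at 12.6 and 13.2 CPM with siNTC, 3.47 CPM in replicate 1 and 0.031 CPM in replicate 2 of siTAZ #1. Its replicates were thus far apart, as for genes of the stretch left out, and with DESeq2 its FDR was 0.22. Tested genes without a position numbered 598. At an average count of 50 or higher, 2 of them were over 4-fold lower in siTAZ #1 replicate 2 than replicate 1. Whether MGC16121 lies in the stretch was not tested, so its rank is not read as a change with siTAZ #1.

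STC1, the secreted glycoprotein stanniocalcin 1 (chromosome 8, 23699442 to 23712319 on GRCh37), rose most of the same genes. It was at 43.6 and 36.4 CPM with siNTC and at 1560 and 1620 CPM with siTAZ #1, a 39.8-fold increase (log2 fold change 5.31 ± 0.15, FDR = 2.5e-12). AREG, a ligand of the EGF receptor, was at 5.92 and 3.34 CPM and rose to 165 and 179 CPM (5.21 ± 0.35). Both siTAZ #1 libraries lay far above both controls in each case. Among secreted factors, BMP2 rose from 9.73 and 7.85 CPM to 135 and 141 CPM (3.97 ± 0.15), and GDF15, a distant member of the same superfamily, rose from 16.6 and 18.7 CPM to 211 and 191 CPM (3.51 ± 0.13). DLL4, a Notch ligand best known in endothelium, rose from 4.73 and 4.25 CPM to 74.4 and 66.3 CPM (3.96 ± 0.24). PLAT, the tissue plasminogen activator, rose from 129 and 127 CPM to 1240 and 1290 CPM (3.31 ± 0.13). The replicates of both groups lay within a narrow range for each of these genes, with AREG in siNTC the widest.

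The cytokines IL8 and IL1B were the remaining secreted signals among the 12 largest increases. Genes with LOC, LINC or -AS symbols were left out of this ranking, among them LOC729950, which rose by 3.92 on the log2 scale. IL8, a chemokine for neutrophils, was at 11 and 10.2 CPM with siNTC and at 74.1 and 137 CPM with siTAZ #1 (3.32 ± 0.23). IL1B was at 0.592 and 0.982 CPM and rose to 11.6 and 9.85 CPM (3.75 ± 0.41). The remaining genes of the 12 encode transporters, a receptor subunit and a centrosomal protein. SLC16A6, of the monocarboxylate transporter family, rose from 2.37 and 2.75 CPM to 82.4 and 82 CPM (5 ± 0.24), and SLC6A15, a transporter of neutral amino acids, from 12.1 and 9.42 CPM to 253 and 310 CPM (4.71 ± 0.16). CHRNA1, the alpha subunit of the muscle acetylcholine receptor, and CCDC68, a centrosomal protein, rose by 4.35 and 3.55 on the log2 scale.

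**Figure D2:**
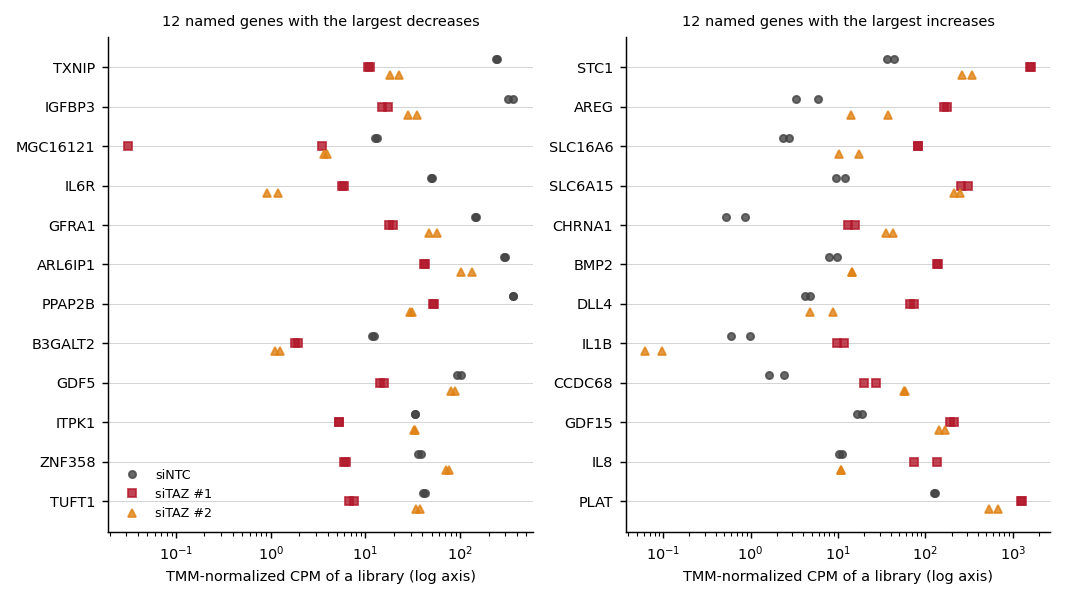
TMM-normalized CPM of each library on a log axis for the 12 named genes with the largest decreases (left) and increases (right); circles are siNTC, squares siTAZ #1 and triangles siTAZ #2, with 2 libraries each. The rule that chose these genes requires the siTAZ #1 squares to be clear of the siNTC circles. The siTAZ #2 triangles lie among the siNTC circles or beyond the squares in some rows. Examples are ITPK1 at 32.4 and 33.2 CPM and CCDC68 at 56.3 and 59.2 CPM.

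These genes were chosen for their values in the siTAZ #1 libraries, so their levels with siTAZ #2 are given as a description, with no test. ITPK1 was at 32.4 and 33.2 CPM and ZNF358 at 70.8 and 76.5 CPM with siTAZ #2, and their log2 differences of siTAZ #1 minus siTAZ #2 were -2.65 ± 0.18 and -3.59 ± 0.16. BMP2 was at 14.6 and 14.3 CPM with siTAZ #2, a log2 difference of 3.25 ± 0.15. SLC6A15 was at 213 and 246 CPM with siTAZ #2, a log2 difference of 0.30 ± 0.13. With siTAZ #2, ITPK1 was thus near its siNTC level and SLC6A15 near its level with siTAZ #1. Others of the 24 genes were near neither. IL6R at 0.921 and 1.19 CPM and CCDC68 at 56.3 and 59.2 CPM lay beyond siTAZ #1. AREG at 14.2 and 37.1 CPM lay between the groups, and IL1B at 0.0969 and 0.0626 CPM lay below siNTC. Over all genes tested, chosen without regard to their values, 18.7% were lower and 19.5% were higher with siTAZ #1 than with siTAZ #2 in the direct test of the siRNAs.

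Known targets of YAP and TAZ fell more often than genes at large, and rose about as often. Of 22 such genes tested, 9 (40.9%) fell and 4 (18.2%) rose, against 15.1% and 15.9% of all genes. Their median log2 fold change was -0.21 against 0.02 over all genes. CTGF, the matricellular protein CCN2, was at 1330 and 1280 CPM with siNTC and at 504 and 419 CPM with siTAZ #1 (-1.50 ± 0.11, FDR = 4.7e-08). CYR61, a related matricellular protein, went from 434 and 476 CPM to 290 and 262 CPM (-0.72 ± 0.10), and CRIM1, which binds BMPs, from 477 and 490 CPM to 152 and 143 CPM (-1.72 ± 0.11). F3, or tissue factor, FJX1, a secreted protein, and LATS2, a Hippo kinase, rose by 0.70, 0.90 and 0.74. ANKRD1 was under 1 CPM in the 4 libraries and did not pass. AMOTL2 was at 130 and 152 CPM with siNTC and at 153 and 128 CPM with siTAZ #1, so the groups overlapped (FDR = 0.97).

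Of 28 genes of the Hippo pathway itself, 3 (10.7%) fell and 10 (35.7%) rose, against 15.1% and 15.9% of all genes. MAP4K4, a kinase upstream of LATS, rose from 407 and 457 CPM to 972 and 998 CPM (1.19 ± 0.10). LATS1, the kinase that phosphorylates TAZ, rose from 15.6 and 13.9 CPM to 31.3 and 31.9 CPM (1.09 ± 0.16), and SAV1, its scaffold, rose by 0.81. TEAD1, the DNA-binding partner of TAZ, rose from 247 and 245 CPM to 372 and 363 CPM (0.58 ± 0.10). NF2, which activates the pathway at the membrane, fell by 0.60. WWC1, or KIBRA, which activates LATS kinases, and AMOTL1, which binds TAZ in the cytoplasm, fell by 0.87 and 0.42, and neither passed without siNTC replicate 1 (FDR = 0.073 and 0.07). The count of higher genes was 6 without siNTC replicate 1.

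The promoters of CTGF and LATS2 are shown because both hold the letters GGAATG, the core that TEAD proteins bind, while the genes moved in opposite directions. Each window runs from 250 bases before to 50 bases after the start of the gene in RefSeq, on GRCh38.p14, read 5′ to 3′ along the gene, and capitals mark GGAATG or its reverse complement. CTGF lies on the minus strand at chr6:131951323-131951622 and LATS2 on the minus strand at chr13:21061537-21061836.
CTGF: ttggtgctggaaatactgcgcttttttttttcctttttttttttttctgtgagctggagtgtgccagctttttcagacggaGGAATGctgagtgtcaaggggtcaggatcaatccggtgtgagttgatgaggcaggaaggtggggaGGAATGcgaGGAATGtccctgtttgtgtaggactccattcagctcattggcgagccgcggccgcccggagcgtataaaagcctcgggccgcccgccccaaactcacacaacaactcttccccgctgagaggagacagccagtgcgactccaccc
LATS2: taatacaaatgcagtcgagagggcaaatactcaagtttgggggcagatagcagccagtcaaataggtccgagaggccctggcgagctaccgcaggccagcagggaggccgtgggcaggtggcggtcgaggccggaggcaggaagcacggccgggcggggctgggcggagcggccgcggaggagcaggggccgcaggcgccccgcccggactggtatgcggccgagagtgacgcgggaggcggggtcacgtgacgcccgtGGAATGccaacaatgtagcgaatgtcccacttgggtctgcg
The CTGF window held 3 copies and the LATS2 window 1. Of the 16 YAP and TAZ targets with a promoter in RefSeq, 7 (43.8%) held the letters on either strand. The share was 9.89% among the lower genes, 10.9% among the higher genes, 10.9% among all genes tested with a promoter and 14% among all promoters of RefSeq. A match in these letters is a description of the window and not evidence of binding.

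Most tested members of an inflammatory list rose. Besides cytokines and chemokines it holds some of their receptors, enzymes, adhesion molecules and regulators. Of 33, 24 (72.7%) rose and 4 (12.1%) fell, against 15.9% and 15.1% of all genes, and the median log2 fold change was 0.83, also with CCL20, which had no counts with siNTC, at its lower bound. IL6, a cytokine of the acute phase, rose from 0.723 and 2.29 CPM to 9.15 and 9.85 CPM (2.65 ± 0.42). CXCL12, a chemokine that holds stem cells in their niche, fell from 129 and 148 CPM to 54.2 and 55.1 CPM (-1.34 ± 0.17). OSMR, the oncostatin M receptor, and PTGES, a prostaglandin E synthase, fell by 0.50 and 1.05, and neither passed without siTAZ #1 replicate 2 (FDR = 0.053 and 0.12). With either siNTC library or siTAZ #1 replicate 2 left out, between 18 and 20 members passed as higher and 1 as lower. In the direct test 22 of the 33 were higher and 2 lower with siTAZ #1 than with siTAZ #2. Over all genes tested these shares were 19.5% and 18.7%. IL8 was at 10.8 CPM in both siTAZ #2 libraries, level with siNTC, and IL1B was at 0.0969 and 0.0626 CPM.

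Interferon-induced genes, a separate branch of innate immunity, had few members that rose. Over all genes tested 15.1% fell and 15.9% rose, so the share of interferon-induced genes that fell was near that of all genes. Of 37 tested, 7 (18.9%) fell and 2 (5.41%) rose, with a median of -0.17, and with either siNTC library left out 4 fell. PSMB9, an immunoproteasome subunit, fell from 22.5 and 20.7 CPM to 8.55 and 7.19 CPM (-1.47 ± 0.20), and IFI35 fell from 19.1 and 15.8 CPM to 6.41 and 7.16 CPM (-1.35 ± 0.23). IRF1, a transcription factor of the interferon response, rose from 29.8 and 27.5 CPM to 46.3 and 46.1 CPM (0.69 ± 0.13).

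Ligands, receptors and regulators of receptor tyrosine kinase signalling were often higher. Of 46 tested, 24 (52.2%) rose and 10 (21.7%) fell, with a median of 0.37, and without siNTC replicate 2 there were 19 and 6. EREG, like AREG a ligand of the EGF receptor, rose from 27.4 and 19.1 CPM to 138 and 178 CPM (2.77 ± 0.19), and PDGFRA, the receptor that marks fibroblasts, rose from 463 and 416 CPM to 1420 and 1440 CPM (1.70 ± 0.11). DUSP4, a phosphatase that restrains MAP kinases, rose from 5.19 and 4.97 CPM to 29.1 and 28.5 CPM (2.50 ± 0.22), while its relative DUSP5 fell by 1.04. Immediate early genes, which respond to such signals within minutes, included 13 that rose and 3 that fell of 27, with a median of 0.38. The number that rose was 9 without siNTC replicate 1, 7 without siNTC replicate 2 and 9 without siTAZ #1 replicate 2, and the number that fell was 2, 1 and 3. IER3, an early response gene of cell survival, rose from 80.9 and 80.4 CPM to 206 and 233 CPM (1.45 ± 0.11), EGR1 rose by 1.34 and NR4A1 by 1.56. FOSL2, a subunit of AP-1, fell from 90.4 and 106 CPM to 47.8 and 41.4 CPM (-1.14 ± 0.13).

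Proteases that act on the matrix rose more often than they fell. Of 33 proteases and inhibitors tested, 18 (54.5%) rose and 4 fell, and the median was 0.44. ADAMTS5, which cleaves aggrecan, rose from 8.54 and 9.82 CPM to 65.7 and 64 CPM (2.82 ± 0.20), and ADAMTS4, with the same substrate, rose by 2.42. MMP10, or stromelysin 2, rose from 1.51 and 2.42 CPM to 9.75 and 8.4 CPM (2.20 ± 0.34). ADAMTS15, another protease of this family, went the other way, from 44.8 and 49.9 CPM to 10.2 and 7.56 CPM (-2.43 ± 0.22). ADAM19, a membrane-bound sheddase, was at 189 and 197 CPM with siNTC, at 97.8 and 99.8 CPM with siTAZ #1 and at 819 and 922 CPM with siTAZ #2. It thus fell with siTAZ #1 by 0.97 ± 0.10, and its log2 difference of siTAZ #1 minus siTAZ #2 was -3.14.

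The matrix itself changed without a common direction. Of 26 collagen chains, 7 (26.9%) fell and 8 (30.8%) rose, with a median of 0.06, against 15.1% and 15.9% of all genes. COL11A1, a chain of a minor fibrillar collagen, fell from 172 and 171 CPM to 70.5 and 69.1 CPM (-1.30 ± 0.11), and COL1A1 and COL1A2, the chains of type I collagen, fell by 0.74 and 1.03. COL3A1 fell by 0.29 ± 0.10 (FDR = 0.032), and it did not pass with the replicate block (FDR = 0.066) or with either siNTC library left out. COL12A1, which coats collagen fibrils, rose from 1000 and 986 CPM to 2000 and 1880 CPM (0.96 ± 0.09), and COL13A1, a membrane collagen, rose by 1.46. Of 33 elastic fibre and matrix glycoproteins, 11 (33.3%) fell and 10 (30.3%) rose. FBLN5 and ELN, which build elastic fibres, fell by 0.88 and 0.72, while POSTN, or periostin, rose from 510 and 501 CPM to 926 and 1030 CPM (0.95 ± 0.10) and EMILIN1, an elastic fibre glycoprotein, rose by 1.00. FN1, fibronectin, was at 8420 CPM in both siNTC libraries and at 10100 and 8390 CPM with siTAZ #1, which did not pass (FDR = 0.29). Of 26 enzymes that process collagen, 5 (19.2%) fell and 8 (30.8%) rose, and PLOD2, a lysyl hydroxylase, rose by 1.22. Of 29 proteoglycan and hyaluronan genes, 7 (24.1%) fell and 6 (20.7%) rose. Among them SULF1, a heparan sulfatase, fell from 12.5 and 14.1 CPM to 2.4 and 2.76 CPM (-2.35 ± 0.29). Without siNTC replicate 1 the glycoproteins stood at 7 lower and 5 higher, the processing enzymes at 2 and 4 and the proteoglycan genes at 6 and 2. In the absence of siNTC replicate 2 the counts were 8 and 7, 3 and 4, and 6 and 3, and without siTAZ #1 replicate 2 the processing enzymes stood at 3 and 8.

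Adhesion receptors changed in both directions. Of 33 integrin and focal adhesion genes, 27.3% fell and 24.2% rose, against 15.1% and 15.9% of all genes. ITGA5, the fibronectin receptor chain, fell from 1130 and 1090 CPM to 315 and 267 CPM (-1.94 ± 0.11), and was at 1050 and 1190 CPM with siTAZ #2. ITGA2, the collagen receptor chain, rose from 157 and 132 CPM to 799 and 942 CPM (2.59 ± 0.12), and ITGB5, a vitronectin receptor chain, rose from 184 and 178 CPM to 466 and 421 CPM (1.29 ± 0.10). ITGA8, an integrin of contractile mesenchyme, rose by 2.77. Of 33 integrin and focal adhesion genes, 9 fell and 8 rose in all, against 5 and 4 without siNTC replicate 1 and 4 and 5 without siNTC replicate 2.

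Of 49 genes of actin dynamics and migration, 18 (36.7%) fell and 9 (18.4%) rose. CORO1C, an actin-binding coronin, and ARPC5, a subunit of the Arp2/3 complex that nucleates branched actin, fell by 1.84 and 1.61, and DAB2, an adaptor of endocytosis, fell from 298 and 305 CPM to 121 and 107 CPM (-1.40 ± 0.11). ACTR2, another subunit of Arp2/3, rose from 267 and 256 CPM to 377 and 510 CPM (0.76 ± 0.14). Of 29 smooth muscle contractile genes, 6 (20.7%) fell and 3 (10.3%) rose, against 15.1% and 15.9% of all genes, and 20 did not pass. CSRP1, a LIM protein of smooth muscle, fell from 650 and 629 CPM to 168 and 139 CPM (-2.06 ± 0.11), and MYOCD, the coactivator of the smooth muscle programme, fell from 20.2 and 18.7 CPM to 6.21 and 8.37 CPM (-1.40 ± 0.22). ACTA2, smooth muscle actin, rose from 186 and 197 CPM to 309 and 261 CPM (0.57 ± 0.11, FDR = 0.0012), and was at 106 and 115 CPM with siTAZ #2. TAGLN was at 806 and 945 CPM with siNTC and at 919 and 636 CPM with siTAZ #1, so the libraries overlapped (FDR = 0.38). LPP, a protein of focal adhesions, rose by 1.63. Among 9 genes of caveolae, CAV1, the main coat protein, fell by 2.18 and EHD2 by 0.71, while SDPR, another coat component, rose by 0.67. With either siNTC library left out, 14 actin genes fell and 4 rose, and 1 caveola gene rose, and without siNTC replicate 2 3 contractile genes fell.

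Genes of the TGF-β and BMP pathways moved in both directions. TGFBR1, the signalling receptor of TGF-β, rose from 14.5 and 15.4 CPM to 101 and 105 CPM (2.78 ± 0.13, FDR = 7.3e-10), while TGFBR3, a coreceptor, fell from 91.7 and 99 CPM to 37.3 and 31.5 CPM (-1.48 ± 0.15). TGFB1, the ligand, rose by 0.80, PMEPA1, a feedback inhibitor, by 1.49, and SMAD3, the signal transducer, fell by 0.67. Of 26 genes of this pathway, 4 (15.4%) fell and 9 (34.6%) rose, against 15.1% and 15.9% of all genes. GREM1, an antagonist of BMPs, fell from 913 and 938 CPM to 376 and 364 CPM (-1.32 ± 0.10), and FSTL1, a secreted follistatin-like protein, from 1720 and 1800 CPM to 770 and 613 CPM (-1.35 ± 0.11). SMAD5, a transducer of BMP signals, rose from 32.5 and 32.7 CPM to 108 and 115 CPM (1.78 ± 0.13). Of 29 BMP genes, 7 (24.1%) fell and 8 (27.6%) rose. Of 34 Wnt and Notch genes, 7 fell and 14 (41.2%) rose. WNT2, a ligand of lung mesenchyme, fell from 14.9 and 18.1 CPM to 4.14 and 1.92 CPM (-2.51 ± 0.33), and FZD1, a Wnt receptor, rose from 24.1 and 24.7 CPM to 63.3 and 70.3 CPM (1.45 ± 0.14). The genes that rose numbered 6 for TGF-β, 4 for BMP and 8 for Wnt and Notch without siNTC replicate 1, and 5, 5 and 8 without siNTC replicate 2. Those that fell without siNTC replicate 2 numbered 2, 6 and 4, and without siTAZ #1 replicate 2 the Wnt and Notch genes that fell were 4. Leaving out siTAZ #1 replicate 1 gave 7 TGF-β genes that fell.

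Of 31 transcription factors of lung mesenchyme and of epithelial to mesenchymal transition, 13 (41.9%) rose and 1 fell, with a median of 0.31. RUNX2, a regulator of bone formation, rose from 8.22 and 10.1 CPM to 40.1 and 45.7 CPM (2.23 ± 0.17), and SOX9, a regulator of cartilage, from 30.2 and 25.6 CPM to 71.2 and 85.1 CPM (1.49 ± 0.17). SNAI2, or Slug, was the gene that fell, by 0.48 ± 0.12, and it did not pass without siNTC replicate 1 (FDR = 0.064) or without siNTC replicate 2 (FDR = 0.078). The number that rose was 6 with siNTC replicate 1 left out and 8 with either siNTC replicate 2 or siTAZ #1 replicate 2 left out, and 3 genes fell in the absence of siTAZ #1 replicate 1.

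**Figure D3:**
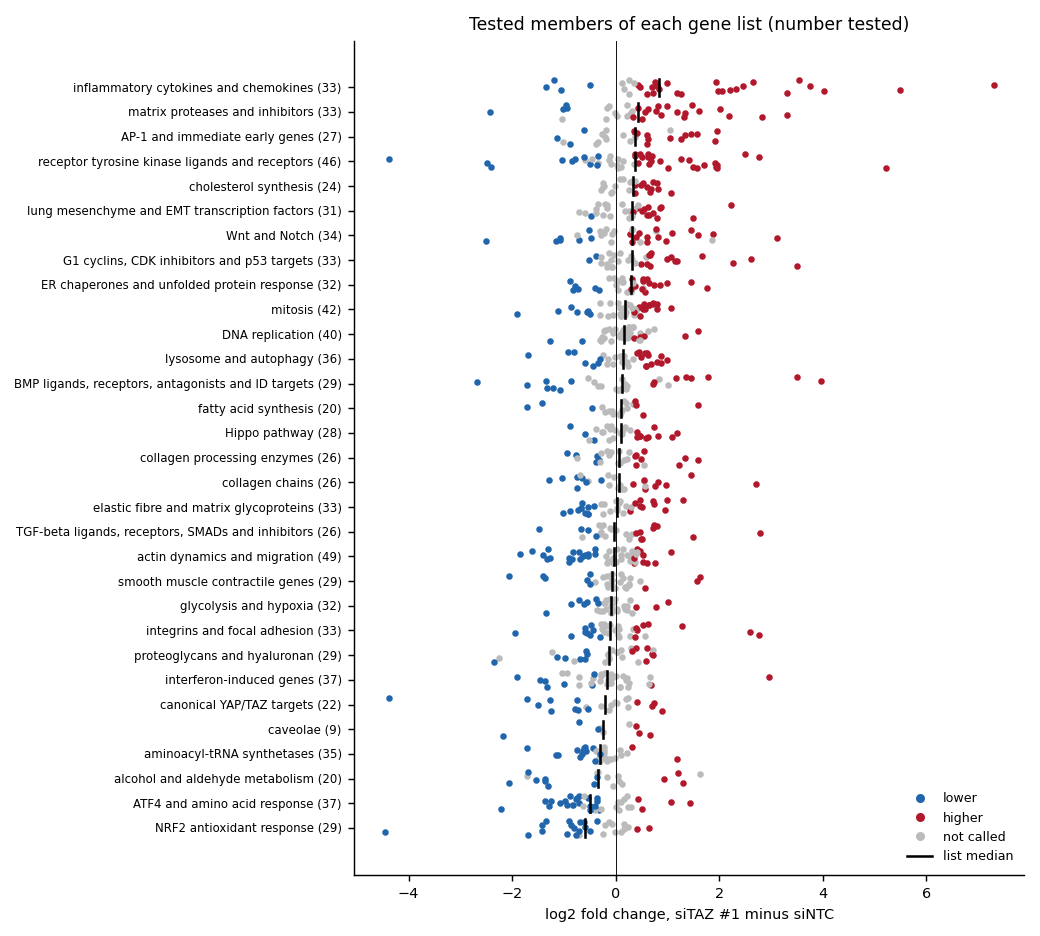
Log2 fold change of siTAZ #1 minus siNTC for each tested member of 31 gene lists, with the number tested in brackets and lists ordered by their median (black bar). Blue points are lower, red points higher and grey points not called; CCL20, without counts in siNTC, is plotted at its fitted value, the rightmost point. The inflammatory list has its median at 0.83 and the NRF2 list at -0.60.

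Genes of the amino acid response were more often lower than higher. ATF4, a transcription factor that is translated when amino acids run short, drives genes of amino acid synthesis, uptake and tRNA charging. Of 37 such genes tested, 20 (54.1%) fell and 4 (10.8%) rose, with a median of -0.49. PCK2, the mitochondrial enzyme that makes phosphoenolpyruvate, fell from 78.5 and 77.6 CPM to 17.6 and 16.2 CPM (-2.21 ± 0.14). ASNS, asparagine synthetase, fell from 155 and 153 CPM to 67.4 and 58.4 CPM (-1.30 ± 0.15), and ALDH1L2, of mitochondrial folate metabolism, fell by 1.36. ATF4 itself was at 539 and 553 CPM with siNTC and at 616 and 554 CPM with siTAZ #1, which did not pass (FDR = 0.49). With siTAZ #2 it was at 241 and 248 CPM. In the direct test 24 of the 37 genes were higher and 3 lower with siTAZ #1 than with siTAZ #2. Over all genes tested these shares were 19.5% and 18.7%. CEBPB, a partner of ATF4, rose from 56.3 and 62.6 CPM to 158 and 165 CPM (1.44 ± 0.12). SLC7A1, a transporter of cationic amino acids, rose by 0.50 ± 0.13 (FDR = 0.0092), and did not pass with either control library left out (FDR = 0.15 and 0.054). With either siNTC library left out, 12 genes of the list passed as lower.

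The promoters of ASNS and SLC7A1 are shown as a second pair of opposite direction. Both hold TGATGNAA, the letters of the CEBP-ATF response element, where N is any base, in capitals on either strand. Both genes lie on the minus strand, ASNS at chr7:97872359-97872658 and SLC7A1 at chr13:29595639-29595938 of GRCh38.p14.
ASNS: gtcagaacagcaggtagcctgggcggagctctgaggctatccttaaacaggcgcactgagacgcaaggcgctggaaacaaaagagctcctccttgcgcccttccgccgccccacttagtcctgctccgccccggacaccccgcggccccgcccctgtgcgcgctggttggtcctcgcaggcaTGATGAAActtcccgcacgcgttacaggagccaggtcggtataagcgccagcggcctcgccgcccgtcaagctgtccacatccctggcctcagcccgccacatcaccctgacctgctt
SLC7A1: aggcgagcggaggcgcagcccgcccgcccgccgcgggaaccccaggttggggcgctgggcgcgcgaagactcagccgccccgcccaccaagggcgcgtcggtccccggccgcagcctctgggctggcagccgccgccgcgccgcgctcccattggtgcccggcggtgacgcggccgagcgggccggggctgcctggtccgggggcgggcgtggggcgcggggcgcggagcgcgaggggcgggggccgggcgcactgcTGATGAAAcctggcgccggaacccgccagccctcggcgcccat
Of the 31 genes of the list with a promoter in RefSeq, 8 (25.8%) held these letters, against 1.67% of all tested genes with a promoter and 3.67% of all promoters. The share was 1.69% among the lower and 1.64% among the higher genes. No other motif searched here contains these letters.

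Of 35 aminoacyl-tRNA synthetases, the enzymes that charge tRNAs with amino acids, 15 (42.9%) fell and 2 rose, with a median of -0.31. The number that fell was 9 without siNTC replicate 1, 8 without siNTC replicate 2 and 11 without siTAZ #1 replicate 2. LARS2, the mitochondrial leucyl enzyme, fell from 77.6 and 85.6 CPM to 26.5 and 23.6 CPM (-1.71 ± 0.13), and GARS, the glycyl enzyme, from 519 and 579 CPM to 264 and 234 CPM (-1.14 ± 0.11). MARS2, the mitochondrial methionyl enzyme, rose by 1.18. Of these enzymes, only AARS belongs to the ATF4 list as well.

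Antioxidant genes under the transcription factor NRF2 were also more often lower than higher. Of 29 tested, 16 (55.2%) fell, 2 rose and 11 did not pass, with a median of -0.60, against -0.14 with siTAZ #2. SQSTM1, the autophagy receptor p62, fell from 697 and 704 CPM to 234 and 199 CPM (-1.70 ± 0.11) and was at 756 and 853 CPM with siTAZ #2. MT1E, a metallothionein with near-identical relatives, fell from 129 and 122 CPM to 45.2 and 48.7 CPM (-1.41 ± 0.13). TXNIP, an inhibitor of thioredoxin rather than an antioxidant gene, is also on this list. GSR, 1 of the 2 genes that rose, did so by 0.41 ± 0.11. GCLM, a subunit of the enzyme that starts glutathione synthesis, rose by 0.64 ± 0.16 and did not pass without siTAZ #1 replicate 2 (FDR = 0.09). Of 20 genes of alcohol and aldehyde metabolism, 8 (40%) fell and 3 rose, and with either siNTC library left out 5 fell. AOX1, aldehyde oxidase, fell from 30.4 and 32.7 CPM to 9.02 and 6.26 CPM (-2.07 ± 0.22).

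In lipid metabolism, part of the genes of cholesterol synthesis were higher. Of 24 tested, 11 (45.8%) rose, 0 fell and 13 did not pass, with a median of 0.34, and 7 rose without siNTC replicate 1. STARD4, a carrier of cholesterol, rose from 21 and 23.4 CPM to 46.4 and 47.3 CPM (1.08 ± 0.15), and CYP51A1 and ACAT2, enzymes of the pathway, rose by 0.82 and 0.81. In the direct test 17 of the 24 were lower and 1 higher with siTAZ #1 than with siTAZ #2. Over all genes tested these shares were 18.7% and 19.5%. Fatty acid synthesis had 3 genes that fell and 4 that rose of 20, and 2 rose with either siNTC library left out. ACLY, which makes cytosolic acetyl-CoA, rose from 167 and 172 CPM to 557 and 464 CPM (1.59 ± 0.11), while ME1, malic enzyme, fell from 75.4 and 86.5 CPM to 27.7 and 32.8 CPM (-1.41 ± 0.13).

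Of 32 genes of glycolysis and hypoxia, 7 fell, 3 rose and 22 did not pass, and 3 fell without siNTC replicate 2. ADM, adrenomedullin, fell from 162 and 177 CPM to 69.4 and 64.2 CPM (-1.35 ± 0.11), while VEGFA, a growth factor for vessels, rose from 89.5 and 87.6 CPM to 186 and 169 CPM (1.00 ± 0.11). GAPDH was at 2450 and 2490 CPM with siNTC and at 2350 and 2270 CPM with siTAZ #1 (FDR = 0.44). For comparison with the lists of this paragraph, 15.1% of all genes tested fell and 15.9% rose. Of 32 chaperones of the endoplasmic reticulum and genes of the unfolded protein response, 14 (43.8%) rose and 6 fell, against 7 and 3 with either siNTC library left out. ERO1L, an oxidase for disulphide bonds, rose from 40 and 38.2 CPM to 86 and 127 CPM (1.45 ± 0.18), and XBP1, a transcription factor of that response, fell from 137 and 159 CPM to 78.4 and 81.2 CPM (-0.89 ± 0.12). Of 36 lysosome and autophagy genes, 13 (36.1%) rose and 7 fell, against 8 and 5 without siNTC replicate 1 and 8 and 4 without siNTC replicate 2.

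More cell cycle genes differed from siTAZ #2 than from siNTC. Of 42 mitosis genes, 14 (33.3%) rose and 7 (16.7%) fell, against 15.9% and 15.1% of all genes, with a median of 0.19. CENPA, the centromeric histone, rose from 18.3 and 15.7 CPM to 36.8 and 34.7 CPM (1.07 ± 0.22), and BUB1B, a spindle checkpoint kinase, from 57.8 and 59.5 CPM to 101 and 102 CPM (0.79 ± 0.12). FOXM1, a transcription factor of mitotic genes, fell from 208 and 199 CPM to 101 and 88.7 CPM (-1.10 ± 0.11), and CDC25B, a phosphatase that starts mitosis, by 0.86. The count of higher mitosis genes was 7 without siTAZ #1 replicate 2, 4 without siNTC replicate 1 and 6 without siNTC replicate 2. Of 40 DNA replication genes, 5 rose and 2 fell, and those that rose were 3, 2 and 3 without the same libraries. In the direct test, 36 of the 42 mitosis genes and 31 of the 40 replication genes were higher with siTAZ #1 than with siTAZ #2, against 19.5% of all genes, and 1 and 0 were lower.

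Among 33 G1 cyclins, CDK inhibitors and p53 targets, 14 (42.4%) rose and 2 fell. RRM2B, a ribonucleotide reductase subunit under p53, rose from 19.2 and 20.9 CPM to 106 and 138 CPM (2.61 ± 0.15), and CDKN2B, the CDK inhibitor p15, from 7.16 and 6.68 CPM to 31.5 and 35.4 CPM (2.27 ± 0.20). CDKN1A, the CDK inhibitor p21, was at 856 and 791 CPM with siNTC, at 689 and 586 CPM with siTAZ #1 and at 3260 and 3600 CPM with siTAZ #2. It fell with siTAZ #1 by 0.37 ± 0.10 (FDR = 0.012) and was lower than with siTAZ #2 by 2.43 on the log2 scale (FDR = 2.9e-10). The decrease did not pass with either control library left out (FDR = 0.16 and 0.06) or in the absence of siTAZ #1 replicate 2 (FDR = 0.051).

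**Figure D4:**
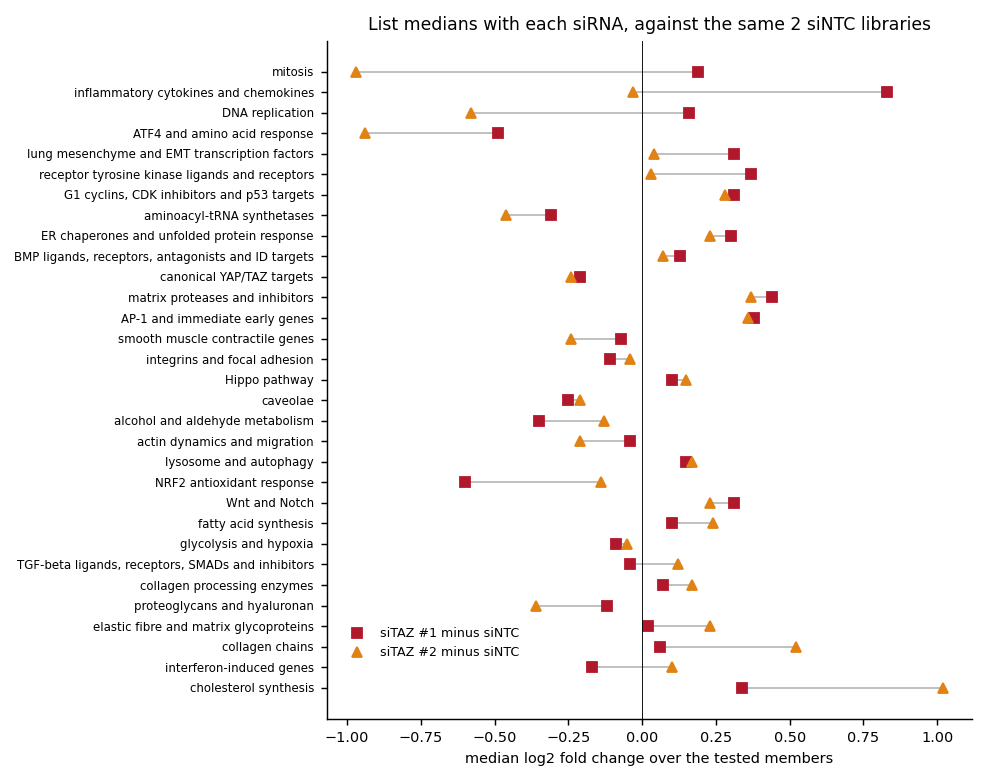
Median log2 fold change over the tested members of each list against the same siNTC libraries, with squares for siTAZ #1 and triangles for siTAZ #2, and lists ordered by their median difference between the siRNAs. The mitosis list lies at 0.19 with siTAZ #1 and at -0.97 with siTAZ #2, and the cholesterol list at 0.34 and 1.02.

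Families of genes defined by their symbols were counted as well, and their counts depended on single libraries. The shares to set them against are 15.1% lower and 15.9% higher over all genes tested. Of 76 cytosolic ribosomal proteins, 21 (27.6%) fell and 1 rose, in small steps with a median of -0.16. RPL23A, of the large subunit, was at 318 and 329 CPM with siNTC and at 186 and 222 CPM with siTAZ #1 (-0.67 ± 0.11). Without siNTC replicate 1 or 2 there were 5 and 8 that fell, and without siTAZ #1 replicate 1 24 fell and 13 rose. Many ribosomal protein genes have processed pseudogenes, so their counts are less certain. Of 75 mitochondrial ribosomal proteins, 18 fell and 6 rose, with MRPL10 lower by 1.89, and the number that fell was 8, 6 and 11 without siNTC replicate 1, siNTC replicate 2 and siTAZ #1 replicate 2. Among 53 genes with EIF symbols, mostly initiation factors of translation and their regulators, 14 (26.4%) fell and 2 rose, and with either siNTC library left out 4 fell. Both genes that rose, EIF2C2 and EIF2C4, and 1 of those that fell, EIF2C1, carry older symbols of Argonaute proteins, which act in RNA silencing and are not initiation factors. EIF4EBP2, a repressor of translation that binds the cap-binding factor, fell from 189 and 191 CPM to 48.7 and 51.7 CPM (-1.92 ± 0.11). GAS5, a snoRNA host gene, fell from 68.4 and 67.2 CPM to 27.1 and 28.7 CPM (-1.28 ± 0.15), and 6 of 22 such host genes fell and 1 rose, with 2 that fell without siNTC replicate 2 and 3 without siTAZ #1 replicate 2. Of 31 histone genes tested, 7 fell and 0 rose, with a median of -0.70. HIST1H2AC fell from 23.9 and 15.4 CPM to 3.94 and 3.1 CPM (-2.50 ± 0.26). Histone genes are near copies of each other, and most replication-dependent histone transcripts lack a poly(A) tail, so these counts are uncertain.

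Of 57 F-box proteins, which bring substrates to ligase complexes, 13 (22.8%) fell and 2 rose, but 7 fell without siNTC replicate 1, 6 without siNTC replicate 2 and 7 without siTAZ #1 replicate 2. Of 46 genes with TRIM symbols, many of them ubiquitin ligases, 11 fell and 4 rose, against 7 and 1 without siNTC replicate 1 and 5 and 4 without siNTC replicate 2. TRIM25, which acts in the response to viral RNA, fell from 170 and 182 CPM to 71.1 and 79.5 CPM (-1.22 ± 0.12), and TRIM8 rose by 1.09. Of 46 genes with PSM symbols, mostly of the proteasome, 10 fell and 3 rose, and 1 of the 3, PSMC3IP, is a recombination factor and not a proteasome gene. The number that fell was 6, 5 and 6 without siNTC replicate 1, siNTC replicate 2 and siTAZ #1 replicate 2. Of 26 genes with TUB symbols, mostly tubulins, 8 (30.8%) fell and 2 rose, but with either siNTC library left out 1 fell, and without siTAZ #1 replicate 2 4 fell. Of 56 genes with RAB symbols, mostly GTPases that direct vesicles, 5 fell and 12 (21.4%) rose, and with either siNTC library left out 6 rose, against 7 without siTAZ #1 replicate 2. RAB11FIP1 and RAB3GAP1, which fell, and RAB11FIP2 and RAB11FIP3, which rose, encode partners of RAB proteins rather than GTPases. RAB1A, which acts between the endoplasmic reticulum and the Golgi, fell from 190 and 181 CPM to 45.2 and 42.9 CPM (-2.08 ± 0.12) and was at 233 and 193 CPM with siTAZ #2. RAB27A, of secretory granules, rose from 13 and 11.3 CPM to 43.4 and 54.5 CPM (2.01 ± 0.18).

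Of 490 zinc finger genes, 27 (5.51%) fell and 49 (10%) rose, below the 15.1% and 15.9% of all genes. Leaving out the control libraries in turn gave 14 and 26, then 13 and 17, and leaving out siTAZ #1 replicate 2 gave 25 and 22. Of 213 solute carriers, 36 (16.9%) fell and 29 (13.6%) rose, near the shares of all genes, although SLC16A6 and SLC6A15 were among the largest increases of all. Without siNTC replicate 1 there were 23 and 17 solute carriers, and 26 and 16 without siNTC replicate 2. Of 55 cadherins and protocadherins, 4 (7.27%) fell and 11 (20%) rose, against 15.1% and 15.9% of all genes. PCDH18 was higher, from 237 and 209 CPM to 552 and 575 CPM (1.34 ± 0.10), and CDH6 was lower by 1.13. The cadherins that rose numbered 6 without siNTC replicate 1, 3 without siNTC replicate 2 and 5 without siTAZ #1 replicate 1. Of 39 semaphorins, plexins, ephrins and Eph receptors, 9 (23.1%) fell and 11 (28.2%) rose, against 6 and 4 without siNTC replicate 1. SEMA6D, a guidance cue, rose from 14.5 and 13.2 CPM to 63.3 and 60.9 CPM (2.16 ± 0.15), and EPHA4, a receptor of ephrins, fell from 116 and 111 CPM to 46.6 and 44.9 CPM (-1.32 ± 0.11). Of 73 genes with DNAJ and HSP symbols, mostly chaperones, 11 fell and 18 (24.7%) rose, and 8 rose with either siNTC library left out, with HSPB8, a small heat shock protein, lower by 2.03, and HSPG2, among those that fell, is the proteoglycan perlecan and no chaperone. Of 40 complex I genes, 33 did not pass, and of 37 genes of complex III, complex IV and ATP synthase, 30 did not. Of 16 HOX genes tested, 1 rose, HOXB5, by 0.52, and it did not pass without siNTC replicate 1 (FDR = 0.066) or without siNTC replicate 2 (FDR = 0.051). Of 52 antisense RNAs, 5 fell and 1 rose, and since the strand setting of the counting is not given, their reads cannot be told apart from those of overlapping genes.

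**Figure D5:**
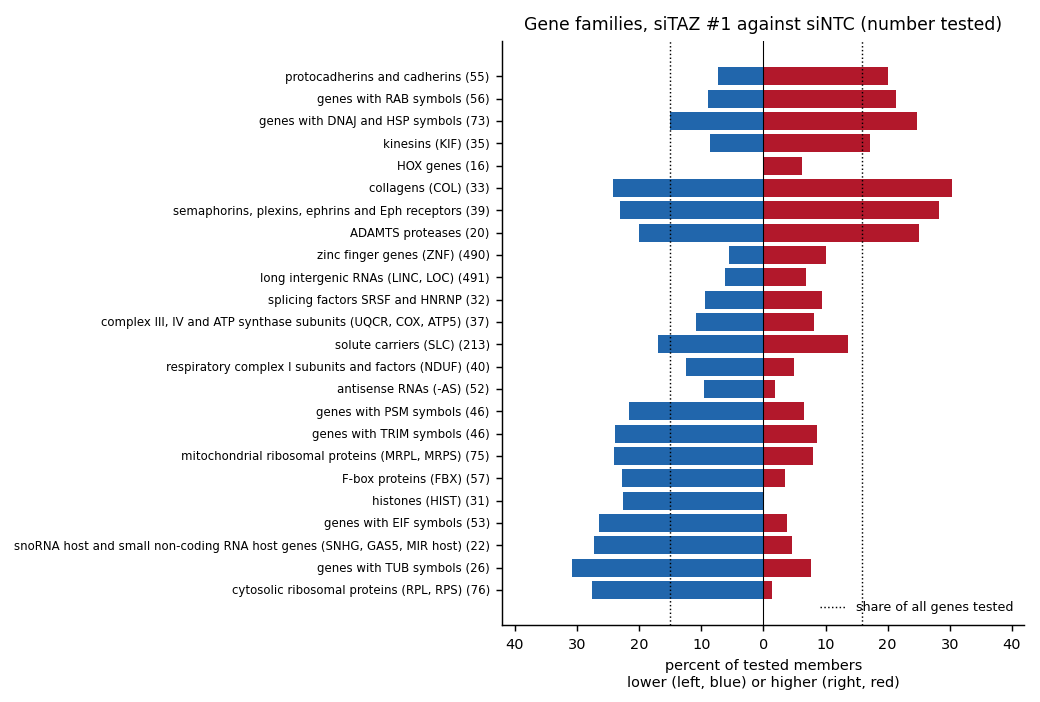
Share of the tested members of each of 24 families, taken by symbol, that was lower (bars to the left, blue) or higher (bars to the right, red) with siTAZ #1, in percent of those tested, with the number tested in brackets. Dotted lines mark the shares over all genes tested, 15.1% lower and 15.9% higher; the bar of the cytosolic ribosomal proteins reaches 27.6% on the left and 1.32% on the right.

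The shares of lower and higher genes differed between bins of base composition. When the genes were ranked by GC content of the transcript and split into 4 bins, 10.8% were lower and 23.7% higher in bin 1, the lowest in GC, with a median of 0.17, and in bin 3 19.5% were lower and 11.7% higher with a median of -0.09. Bin 4, the highest in GC, lay between them, with 14.4% lower, 13.3% higher and a median of 0.02. Over 4 bins of transcript length the median ranged from -0.02 to 0.06, and from the shortest to the longest bin the share lower went from 13.9% to 16.1% and the share higher from 11.7% to 19.6%. With a GC offset in the fit, an alternative added after the data were seen, the zinc finger genes stood at 32 lower and 40 higher, the cytosolic ribosomal proteins at 18 and 1, the inflammatory list at 4 and 25 and the NRF2 list at 16 and 3.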

How the data were processed

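HFL-1 cells transfected with siNTC, siTAZ #1 or siTAZ #2 were profiled by RNA sequencing, with 2 libraries per group and 6 in all, grouped by the labels. Per the labels and the methods, the authors used TMAP for alignment of the Ion Proton reads to hg19 and HTSeq 0.6.1 for counting. The deposited values are raw counts per gene symbol, without normalization, and the strand setting is not given in the sources used here. Of 23368 entries, 13 held a date in place of a symbol and were left out. GRCh37 positions could be assigned to 21478 symbols, including 1922 by an older symbol or synonym. The 1222 genes of the near-missing stretch were left out, and 598 tested genes had no position. Any of these 598 that lie in the stretch stayed in the test.

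Here genes were filtered with filterByExpr by group, scaled by TMM and tested in R 4.3.3 by edgeR 4.0.16 (quasi-likelihood), where 1 model with group as its sole term covered the 6 libraries, Benjamini-Hochberg adjustment over 13438 genes and with an FDR threshold of 0.05. The common dispersion was 0.0156, against 0.0807 with the stretch kept. Errors of log2 fold changes are SE from the fold change and its F statistic. siTAZ #1 was compared with siNTC and with siTAZ #2. The tests were also run on simulated data with 200 changed genes, and the outcome is not given here.

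Genes named in the text followed a rule: WWTR1 and YAP1, fixed anchors such as CTGF and ATF4, and the 12 lowest and 12 highest genes. Up to 3 examples per list and direction were added. The lowest and highest genes had separated libraries and a mean of at least 5 CPM. Genes with LOC, LINC or -AS symbols were left out of that ranking. Members, lists and rule were chosen with earlier results of these data known. The alternatives were DESeq2 1.42.0, edgeR's exact test on 4 libraries, RLE and upper-quartile scaling, other filters, a fit of 4 libraries, a replicate block, the stretch kept, and leaving out each library. An offset for GC content, known for 95.5% of the genes tested, and a crossed replicate block were chosen after seeing the data. Promoters from RefSeq on GRCh38.p14 were found for 10171 of the genes tested and searched on both strands for the TEAD core GGAATG, the AP-1 site TGANTCA, the CEBP-ATF element TGATGNAA (N is any base) and the interferon-stimulated response element, written as 2 copies of GAAA spaced by 2 bases.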

Additional observations from a re-analysis of the deposited data

How the results depend on the processing

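The counts of genes lower and higher with siTAZ #1 stayed within 1.5 times of 2026 and 2132 with DESeq2, the exact test, other scalings, other filters, a fit of 4 libraries, the stretch kept and the GC offset. Leaving out each library in turn gave 1128 to 2179 lower and 1079 to 2228 higher, with the lowest values without an siNTC library: 1167 lower and 1079 higher without siNTC replicate 1, and 1128 and 1110 without siNTC replicate 2. Against siTAZ #2 the counts were 1791 to 2440 lower and 2030 to 2567 higher. With the stretch kept, 1374 were lower and 1515 higher. Upper-quartile scaling moved the share of lower genes among those called to 54%. Correlations of replicate deviations were -0.01 for siNTC and siTAZ #1, 0.02 for siNTC and siTAZ #2 and -0.3 for siTAZ #1 and siTAZ #2. With 2 libraries per group these values cannot settle whether libraries of different groups are paired. With the replicate block 1733 were lower and 1795 higher than siNTC, and 2264 lower and 2367 higher than siTAZ #2. A crossed replicate block, with the numbers of siTAZ #2 exchanged, gave 2386 and 2482 against siNTC and 2810 and 2929 against siTAZ #2.

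Of 305 called genes that the rule names, 0 changed direction under any alternative, and between 0 and 64 no longer passed, with the most without siNTC replicate 2, 55 without siNTC replicate 1 and 31 without siTAZ #1 replicate 2. The rule took these genes from those called, and nearly all called genes had separated libraries. An unchanged direction follows largely from that choice and adds no support to the calls. Genes that had not passed changed sign in 7 cases. AMOTL2 went to 0.01 with the stretch kept, 0.10 without siNTC replicate 2, 0.12 without siTAZ #1 replicate 2 and 0.09 with the GC offset. TAGLN went to 0.07 without siTAZ #1 replicate 2. ANKRD1 without siNTC replicate 2 and FN1 without siTAZ #1 replicate 1 changed sign only before rounding, with values that round to 0. With each library left out in turn, the log2 fold change ranged from -0.14 to 0.12 for AMOTL2, from -0.98 to 0 for ANKRD1, from 0 to 0.26 for FN1 and from -0.46 to 0.07 for TAGLN. The cause was not tested. What left the counts of the stretch nearly missing in siTAZ #1 replicate 2 was not tested.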

Other observations

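Of 35 kinesins, motor proteins of microtubules, 6 rose and 3 fell with siTAZ #1, and 2 or 3 rose with siNTC replicate 1, siNTC replicate 2 or siTAZ #1 replicate 2 left out. KIF3B, a motor subunit of cilia, was at 155 and 158 CPM with siNTC, at 127 and 116 CPM with siTAZ #1 and at 33.9 and 35.6 CPM with siTAZ #2, with a log2 difference of siTAZ #1 minus siTAZ #2 of 1.81. Of 32 splicing factors of the SRSF and HNRNP families, 3 fell and 3 rose, while without siTAZ #1 replicate 1 9 rose and without siNTC replicate 1 0 rose, with HNRNPAB, an RNA-binding protein, lower from 286 and 281 CPM to 137 and 134 CPM (-1.06 ± 0.10). Of 20 ADAMTS proteases, 4 fell and 5 rose, and of 33 collagens 8 fell and 10 rose. Of 491 genes with LINC or LOC symbols, 30 (6.11%) fell and 34 (6.92%) rose. Leaving out the control libraries in turn gave 15 and 9, then 13 and 15, and leaving out siTAZ #1 replicate 2 gave 12 and 20. LOC392232 rose from 20.8 and 21.1 CPM to 82.3 and 95.5 CPM (2.08 ± 0.14).

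Of the 14 fibroblast identity genes, 7 fell and 4 rose, and 3 fell without siNTC replicate 1. DCN, the proteoglycan decorin, fell by 0.68, while FBN1, fibrillin 1 of microfibrils, rose from 485 and 490 CPM to 872 and 742 CPM (0.73 ± 0.11). Among the promoters, the motif of the interferon-stimulated response element was held by 18 of 29 interferon-induced genes (62.1%) against 2.83% of all tested genes with a promoter, and by 3.19% of the lower and 2.07% of the higher genes. TGANTCA, the letters of the AP-1 site, was held by 5 of 27 inflammatory genes (18.5%) and by 1 of 20 immediate early genes (5%), against 4.54% of all tested genes with a promoter.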
